A study of Mus musculus with 7 samples.

Results

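The collagen-rich mesenchymal cells of the BRCA1-null mouse mammary tumors were the cells in which Col1a2 and Col3a1 together made up at least 20 of every 10000 UMIs (unique molecular identifiers, each counting 1 captured transcript) and Rgs5 made up under 5. They numbered 338 of the 2323 BRCA1-null cells that passed the filters and of 12168 cells in all 7 libraries. Nearly all of them, 334, came from 1 tumor, replicate B, where they made up 16.1% of 2078 cells (95% Clopper-Pearson interval 14.5 to 17.7%). Replicate A held 4 among 245 cells (1.63%, interval 0.447 to 4.13%). The values below therefore describe the cells of 1 tumor, intervals cover counting error only, and no p-value is given, because the cells were chosen by their own expression and cells of 1 library are not replicates.

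Single-cell 3′ RNA-seq was run on untreated mammary tumors of adult mice harvested at a volume near 1000 mm3, after sorting for CD24+ cells that lacked CD31, CD45 and Ter119. The BRCA1-null tumors arose spontaneously in FVB/NJ mice that carry floxed (F/F) alleles of Brca1 and of Trp53 together with K14-Cre, in which Cre, driven by a keratin promoter of basal epithelium, deletes both genes, so that cells without a history of that promoter keep the floxed alleles. The libraries compared with them came from spontaneous MMTV-Neu tumors (FVB/NJ), of which, by the study's methods, that of replicate A carried floxed FIP200 without Cre, from MMTV-PyMT tumors grown by transplanting the FF99WT line, which carries floxed FIP200 without Cre (FVB/NJ), and from transplanted 4T1 cells marked with GFP (BALB/C). Replicates A and B of a model were separate tumors sequenced in separate batches, so tumor and batch cannot be told apart.

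Mesenchymal cells such as fibroblasts build the extracellular matrix of connective tissue. They secrete fibrillar collagens, whose chains are hydroxylated and folded in the endoplasmic reticulum, trimmed outside the cell and then cross-linked by lysyl oxidases, and they lay down elastic fibers of elastin on a scaffold of fibrillin and microfibril proteins. Pericytes, which wrap small vessels, share part of this program and are marked by Rgs5. Tumor cells that have undergone an epithelial-mesenchymal transition can express matrix genes as well.

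The rule genes and the given markers lie on 4 chromosomes of the GRCm38 build. Col1a2, a chain of type I collagen, is at chr6:4504814-4541544 on the plus strand, Col3a1, the chain of type III collagen, at chr1:45311538-45349706 on the plus strand, and Rgs5 at chr1:169655501-169695813 on the plus strand. Sparc, a collagen-binding matricellular protein, is at chr11:55394500-55423183 on the minus strand. Mfap5, a microfibril-associated glycoprotein, is at chr6:122505845-122529290 on the plus strand, and Eln, elastin, at chr5:134702593-134747323 on the minus strand.

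Replicate B held 30795784 UMIs in 2810 barcodes and the other libraries between 5729799 and 38028054. The 334 members had a median of 10378 UMIs and 2685.5 genes a cell, against 12431 UMIs and 2777 genes in the other 1744 cells of the library. The median mitochondrial share was 3.39% in members and 4.86% in the others. Of the members, 5 had a barcode that also occurred in another library. The other cells comprised 1480 epithelial cells (Epcam, Cldn3, Krt8 and Krt18 together at 5 or more per 10000 UMIs), 92 Rgs5-high cells, 14 cells past the same limit on immune or endothelial genes, and 158 remaining cells.

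The summed collagen level that chose the members ran from 20.0 to 412 per 10000 UMIs with a median of 52.1. At a limit of 40 per 10000 the members of replicate B would number 205. There was no gap at the limit: the 44 members between 20 and 25 per 10000 and the 43 cells between 15 and 20 that were left out had median Sparc levels of 29.1 and 29.3, median Dcn levels of 4.48 and 4.50, and median Epcam levels of 0.772 and 0.765 per 10000. The members just inside the limit were therefore close in these genes to the cells just outside it.

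**Figure D1:**
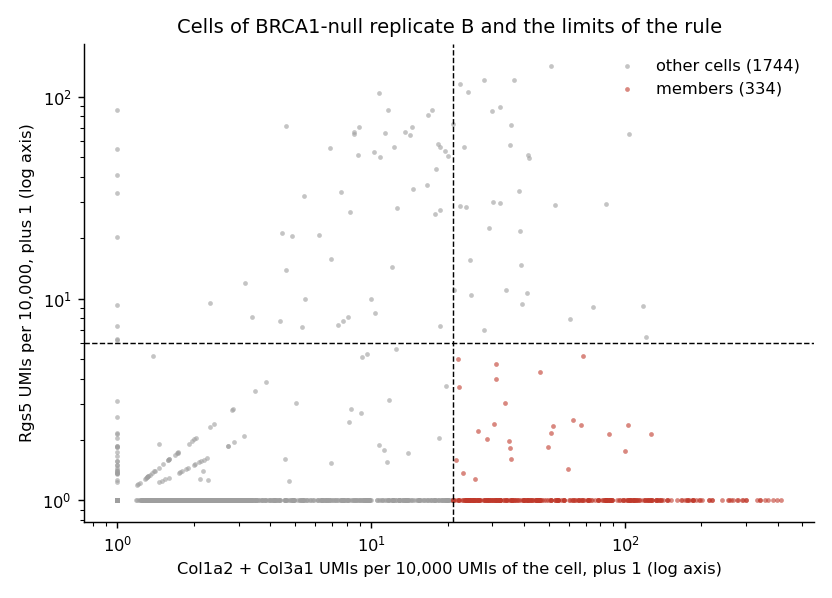
Each point is a cell of BRCA1-null replicate B, with Col1a2 plus Col3a1 on the x axis and Rgs5 on the y axis, both as UMIs per 10000 of the cell plus 1 on log axes; dashed lines mark the limits of 20 and 5. The 334 members (red) lie at the lower right, the other cells below the Rgs5 limit run up to the collagen limit without a gap, and 35 of the 1744 other cells are past the collagen limit but at or above the Rgs5 limit.

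In the other models such cells were nearly absent after the same sort. The rule found 4 of 1751 cells in the 4T1 library, 1 of 2308 in Neu replicate A, 1 of 1842 in PyMT replicate B and none in PyMT replicate A (0 of 1947 cells, which allows a share of up to 0.154%, 3 cells of the total) or Neu replicate B (0 of 1997 cells, up to 0.150%). Of the 4 cells in the 4T1 library, 2 had a barcode that also occurred in another library. The 4 cells of BRCA1-null replicate A were unlike each other. Their collagen sums were 27.0, 171, 133 and 20.5 per 10000, and their Mfap5 counts were 2, 10, 26 and 0 UMIs. Eln was counted in only 1 of these 4 cells, with 22 UMIs, and the same cell held 249 Dcn and 102 Lum UMIs. None of the 4 held a Ptprc or Pecam1 UMI.

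Summed over cells and scaled to CPM (counts per 1000000 UMIs), 606 of the 11504 genes with at least 50 UMIs in replicate B (5.27%) were at least 4-fold higher in members than in the other cells, and 808 (7.02%) were at 0.25-fold or less. These counts belong to the contrast that chose the cells and are descriptions. Over all these genes the median log2 ratio was -0.10.

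Of 10 fibrillar collagen genes considered, 8 were at least 4-fold higher and none 4-fold lower, with a list median log2 ratio of 3.91. Without the 2 rule genes the count was 6 of 8 and the median 3.06. Col1a1, the other chain of type I collagen, was at 2777 CPM in members and 62.0 CPM in other cells, a log2 ratio of 5.49 (95% interval 5.41 to 5.56). Col5a2, a chain of the type V collagen that nucleates fibrils, was at 857 and 53.8 CPM, and Col11a1 at 417 and 85.2 CPM. Col2a1, the main fibrillar collagen of cartilage, was the exception among the well-counted genes, at 30.2 CPM in members and 71.6 CPM in the others. Among the other matrix collagens, 8 of 10 were at least 4-fold higher: the 3 chains of the beaded-filament type VI collagen were at 872 CPM (Col6a1), 712 CPM (Col6a2) and 824 CPM (Col6a3) against 53.6, 42.1 and 39.0 CPM.

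Enzymes that process collagen were also at higher levels. Of 24 genes considered, 16 were at least 4-fold higher and none 4-fold lower, with a median log2 ratio of 2.11. The list sum was 5224 CPM in members, 3893 CPM in Rgs5-high cells and 2918 CPM in remaining cells. Serpinh1, the collagen chaperone HSP47, was at 1447 CPM in members and 348 CPM in other cells. Pcolce, which enhances the trimming of procollagen, was at 1142 and 155 CPM. The cross-linking enzyme Loxl1 was at 227 and 9.57 CPM, and Adamts2, which removes the amino-terminal propeptide, at 271 and 10.2 CPM. Ppib, a prolyl isomerase that every secretory cell uses, differed least of these, at 765 and 259 CPM.

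In the elastic fiber list, 12 of 17 genes were at least 4-fold higher and 1, Ltbp1, was at 0.25-fold or less. Mfap5 was at 1140 CPM against 18.98 CPM, a log2 ratio of 5.91 (95% interval 5.77 to 6.05), and Eln at 963 against 21.4 CPM, a log2 ratio of 5.49 (5.36 to 5.63). At 3000 UMIs a cell, 55.0% of 311 members (interval 49.3 to 60.6%) and 2.96% of 1352 epithelial cells (2.12 to 4.01%) held an Mfap5 UMI. Fbn1, the fibrillin of the microfibril core, was at 311 and 21.03 CPM. Of the small leucine-rich proteoglycans, which coat collagen fibrils, Dcn was at 1356 and 96.3 CPM, Lum at 503 and 12.8 CPM, and Bgn at 2330 and 254 CPM. In all, 8 of 12 proteoglycan genes were at least 4-fold higher. Among matricellular genes the count was 10 of 18: Sparc was at 7307 and 709 CPM, Igfbp7, an insulin-like growth factor binding protein, at 5367 and 571 CPM, and Fn1, fibronectin, at 1429 and 159 CPM. Postn, periostin, was at 803 and 323 CPM and was not among the 10. Summed over its list, the matricellular level was 19110 CPM in members and 17079 CPM in Rgs5-high cells. For elastic fiber genes it was 4773 and 969 CPM.

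Matrix proteases and their inhibitors were higher in members than in other cells, 16 of 18 genes by at least 4-fold. Timp1, an inhibitor of metalloproteinases, was at 1970 and 180.1 CPM, and Serpinf1, pigment epithelium-derived factor, at 1152 and 75.6 CPM. Mmp3, stromelysin, was at 1028 and 52.6 CPM, but 29.0% of its 3806 UMIs in members came from 3 cells. Basement membrane genes were mixed: 10 of 16 were at least 4-fold higher, led by Col4a1 (1359 and 196 CPM) and Col4a2 (1308 and 167 CPM), whereas Lama5, a laminin chain of epithelial basement membranes, was at 4.59 and 19.3 CPM. Summed over the list, basement membrane genes were at 4183 CPM in members and 4103 CPM in Rgs5-high cells. The protease and inhibitor list was at 9346 CPM in members and 7366 CPM in Rgs5-high cells.

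**Figure D2:**
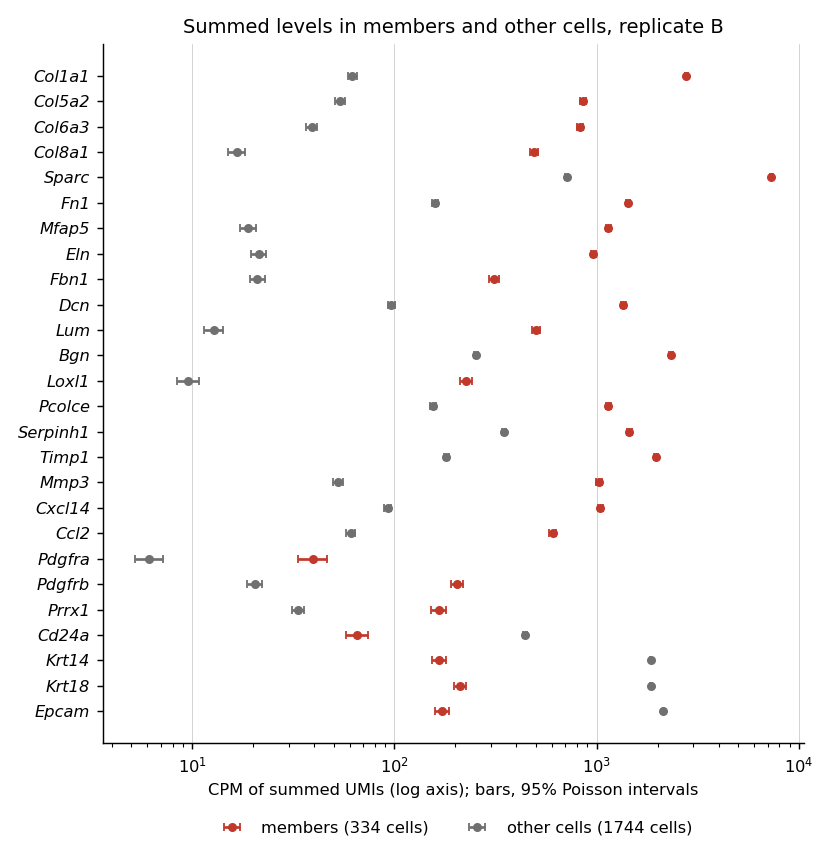
CPM of UMIs summed over the 334 members (red) and the 1744 other cells (grey) of BRCA1-null replicate B for 26 genes on a log axis, with 95% Poisson intervals that cover counting error only. The matrix genes at the top were higher in members, Sparc at 7307 against 709 CPM, and Cd24a, Krt14, Krt18 and Epcam at the bottom were lower.

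Of 18 growth factor ligands, 6 were at least 4-fold higher and 1, Igf2, was lower. Of 20 receptors, 10 were at least 4-fold higher, among them Pdgfrb at 204 and 20.4 CPM, and 1, Met, the receptor of hepatocyte growth factor, was at 1.35 and 13.1 CPM. Among chemokines, cytokines and complement genes 8 of 18 were at least 4-fold higher. The chemokine Cxcl14 was at 1041 and 92.8 CPM and the monocyte attractant Ccl2 at 606 and 60.7 CPM. Of 11 transcription factors of epithelial-mesenchymal transition, 6 were at least 4-fold higher, including Zeb1 (60.8 and 10.7 CPM), Zeb2 (84.3 and 16.9 CPM) and Prrx1 (165 and 33.5 CPM), while Snai2 was at 8.37 and 13.8 CPM. Of 13 mesenchymal transcription factors considered, 9 were at least 4-fold higher, led by Ebf1, which also acts in adipose and stromal precursors, at 382 and 53.6 CPM. Tcf21, a factor of many resident fibroblasts, had no UMI in the library. Several of these lists were not highest in members. Summed over its list, the chemokine, cytokine and complement level was 3353 CPM in members and 6271 CPM in Rgs5-high cells. Receptors were at 1706 and 2236 CPM, mesenchymal transcription factors at 799 and 1122 CPM, and growth factor ligands at 1011 and 843 CPM. The transition factors were at 812 CPM in members, 700 CPM in Rgs5-high cells and 928 CPM in remaining cells.

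The 10 largest ratios outside the rule genes, among genes of at least 50 CPM in members, were those of Reg3g, Tnmd, Mfap5, Cilp, Eln, Col1a1, Frem1, Col10a1, Lum and Saa3. Some of them rested on few cells. Reg3g, an antimicrobial lectin, was counted in 5 members, and 95.8% of its 361 UMIs came from 1 cell. Saa3, an acute-phase protein, was counted in 7 members, with 75.5% of 278 UMIs in 1 cell. Tnmd, tenomodulin, a membrane protein of tendon and ligament, was broader: 148 members held its 1250 UMIs, and it was at 338 CPM in members and 3.68 CPM in other cells. Cilp, a cartilage and tendon matrix protein, was counted in 51 members and Col10a1, the collagen of hypertrophic cartilage, in 52.

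All 8 fibroblast markers of the fixed list were at least 4-fold higher in members. Pdgfra, the receptor that marks most fibroblasts, was at 39.7 and 6.12 CPM, and Fap at 52.9 and 5.27 CPM. Of the 8 pericyte markers, 1 was at least 4-fold higher, 2 were at 0.25-fold or less and 5 lay between. The higher one was Cspg4, the NG2 proteoglycan, at 36.5 CPM in members and 7.204 CPM in other cells, and the lower ones were Rgs5, which the rule used, and Kcnj8. The pericyte channel genes Kcnj8 and Abcc9 were at 0.810 and 2.16 CPM in members and at 176 and 222 CPM in the Rgs5-high cells. Endothelial markers were near 0, the highest being Egfl7 at 10.3 CPM, and 83.3% of the 12 Pecam1 UMIs came from 1 cell. Of the 9 immune markers, Ptprc (CD45), Cd3e and Cd79a had no UMI in members and Cd74 was at 4.05 CPM. Fcer1g, an adaptor chain of immune receptors, went against this: it was at 305 CPM in members and 19.7 CPM in other cells and was counted in 109 members, whereas Tyrobp, its usual partner in myeloid cells, totalled 3 UMIs over all members. Fcer1g was not particular to members. At 3000 UMIs a cell, 27.7% of 311 members, 26.3% of 76 Rgs5-high cells and 1.41% of 1352 epithelial cells held an Fcer1g UMI. Erythroid genes had no UMI. The collagen-rich part of the label was set by the rule, because Col1a2 and Col3a1 chose the cells. The other given markers, Sparc, Mfap5 and Eln, were higher in members, but Mfap5 was at 0 in 131 of the 334. The members as a whole had a fibroblast-like marker profile.

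Epithelial genes were low but not at 0. Epcam was at 172 CPM in members and 2382 CPM in epithelial cells, which is 7.23% of the epithelial level, and the 8 epithelial markers lay between 6.09 and 12.3% of it. The 3 basal keratins Krt14, Krt5 and Krt17 were at 8.10, 10.4 and 8.57%. In the remaining cells the same 11 genes were at 3.16 to 7.70%. The wider list of basal genes was less uniform than these keratins. Of its 7 genes considered, 4 were at 0.25-fold or less of the other cells and 2 had a ratio above 1. Acta2, a contractile gene of that list, held 1682 UMIs in 194 members. Summed, the list was at 1178 CPM in Mfap5-high and 451 CPM in Mfap5-low members, sets defined below. Of the members, 107 (32.0%) reached the limit of 5 epithelial UMIs per 10000 used for the epithelial class. After thinning each cell to 3000 UMIs, 28.3% of 311 members held an Epcam UMI against 94.7% of 1352 epithelial cells and 24.0% of 150 remaining cells. Free RNA, doublets and the members' own expression were not told apart as sources of these UMIs. Cd24a, the gene of the sorted surface protein, was at 65.4 CPM in members and 486 CPM in epithelial cells.

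The smallest ratios, among genes of at least 50 CPM in the other cells, included those of Sprr1a, Cldn6, Cnmd, Cd74, Cldn4, Igkc, Wfdc5, Sfn and Ly6d. Cldn6, an embryonic claudin, was at 5.13 CPM in members and 111 CPM in other cells, and Cnmd, chondromodulin, a relative of tenomodulin, was at 13.0 and 224 CPM, opposite to Tnmd. Igkc is an immunoglobulin gene and was at 15.7 and 217 CPM. All 19 proliferation genes were lower in members, 6 of them at 0.25-fold or less, with a list median log2 ratio of -1.49. At 3000 UMIs a cell, 2.25% of members (7 of 311, interval 0.910 to 4.58%) and 9.12% of other cells (145 of 1590, interval 7.75 to 10.6%) held at least 2 of 8 mitotic or replication transcripts. Without thinning these shares were 6.59 and 21.04%. At 3000 UMIs the share was 5.33% in remaining cells (8 of 150, interval 2.33 to 10.2%). In Rgs5-high cells it was 7.89% (6 of 76, interval 2.95 to 16.4%). Both intervals overlap that of members, which does not show that the shares are equal.

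Brca1, the gene deleted in these tumors, totalled 2 UMIs in members (0.540 CPM) and 81 in other cells (3.14 CPM). UMIs are counted at the transcript's 3′ end, and the files do not say whether that end lies within the deleted part, so these counts do not check the deletion.

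The members were not 1 uniform population. Mfap5 was at 0 in 131 of them, above 0 but under 5 per 10000 in 31 and at 10 or more in 144, and the limit of 5 used here was chosen after these values were seen. It gave 172 Mfap5-high and 162 Mfap5-low members with a median of 9450.5 and 11651.5 UMIs and a median collagen sum of 87.6 and 32.8 per 10000. Of the 44 members just above the collagen limit only 4 were Mfap5-high. A k-means grouping of the members on 6 principal components put 303 of 334 members on the same side as the limit did. It drew on the expression of the same cells, so it is not a separate check of the split. The differences below come from the same cells as the split and are descriptions.

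Between the sets, 135 of 5941 genes with at least 50 UMIs in members (2.27%) were at least 4-fold higher in Mfap5-high and 115 (1.94%) in Mfap5-low members. Across the 334 members, Mfap5 per 10000 UMIs had a Spearman correlation of 0.75 with Col1a1, 0.74 with Sparc and 0.66 with Lum, and of -0.57 with Mest and -0.60 with Cytl1. These values share each cell's total as denominator and are given with no p.

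At least 4-fold higher in the Mfap5-high set were 2 of 9 fibrillar collagens, 2 of 9 other matrix collagens, 3 of 21 collagen-processing genes and 3 of 15 elastic fiber genes. Col1a1 was at 4917 CPM there and 958 CPM in Mfap5-low members, Eln at 1796 and 255 CPM, and Lum at 963 and 112 CPM. Lox, the founding lysyl oxidase, was at 175 and 13.0 CPM, with UMIs in 104 of 172 and 12 of 162 cells, or in 54 of 157 and 3 of 154 cells thinned to 3000 UMIs. Timp1 was at 3589 and 594 CPM. Tnmd, which lies on chromosome X, was counted in 127 Mfap5-high and 21 Mfap5-low members, at 612 and 104 CPM. Not every matrix gene followed: Col4a1 was at 1518 and 1224 CPM, Pcolce at 1093 and 1183 CPM, and the proteoglycan list split, with 5 genes higher and 7 lower in the Mfap5-high set.

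The 15 genes most in excess in Mfap5-high members, among those of at least 50 CPM there, included smooth muscle genes (Tagln at 873 and 81.0 CPM, Actg2 at 182 and 9.49 CPM), the adventitial fibroblast marker Pi16 (56.4 CPM against no UMI in 162 cells) and the eosinophil attractant Ccl11 (123 and 9.49 CPM). Pi16 was counted in 30 cells and 28.1% of its 96 UMIs came from 1. S100b, a calcium-binding protein of glia and cartilage, was in 108 Mfap5-high and 14 Mfap5-low members, while the glial factor Sox10 was lower in the Mfap5-high set, at 6.47 and 26.0 CPM. Srgn, the proteoglycan of secretory granules, was at 192 and 2.00 CPM, with UMIs in 69 and 3 cells. Fcer1g followed the same side, at 551 and 96.5 CPM. Adventitial fibroblast genes as a list were at least 4-fold higher in 5 of 11 and lower in none.

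The Mfap5-low set had its own genes. Icam1, an adhesion molecule, was at 2254 CPM against 227 CPM in Mfap5-high members, and Cytl1, a secreted cytokine-like protein of cartilage, at 1903 against 226 CPM. Ptn, the growth factor pleiotrophin, was at 1471 and 169 CPM. Mest, an imprinted gene of embryonic mesoderm, was at 557 and 40.0 CPM, with UMIs in 116 of 162 and 31 of 172 cells, or in 81 of 154 and 8 of 157 cells thinned to 3000 UMIs. Sox9, a transcription factor of cartilage and of mammary stem cells, was at 171 and 15.9 CPM, Bmp4 at 63.0 and 2.35 CPM, and Cthrc1, a secreted protein induced in injured arteries, at 237 and 17.0 CPM. Cthrc1 was counted in 60 of 162 Mfap5-low members, and 37.8% of its 503 UMIs in members came from 3 cells. Yap1, an effector of the Hippo pathway, was at 228 and 48.8 CPM. Ccl5 was also on this side, at 161 and 7.05 CPM, but 70.7% of its UMIs in members came from 1 cell. Vim differed little, at 3809 CPM in Mfap5-low and 4035 CPM in Mfap5-high members.

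Some genes of this second set, picked after their values were seen, were at close levels in the 158 remaining cells, which fell below the collagen limit and below the epithelial limit. In those cells Mest was at 543 CPM, Cytl1 at 2151 CPM, Ptn at 1379 CPM and Yap1 at 207 CPM. Fbln2, fibulin 2, lay between the member sets, at 670 CPM in the remaining cells against 849 CPM in Mfap5-low and 488 CPM in Mfap5-high members. Mfap5 itself was at 39.9 CPM in the remaining cells and 33.5 CPM in Mfap5-low members. Mmp3 and Igfbp3 were higher in Mfap5-low members, at 1763 and 962 CPM, than in the remaining cells, at 306 and 505 CPM. Matrix genes also differed: summed over its list, fibrillar collagen was at 5897 CPM in Mfap5-low members and 1626 CPM in the remaining cells, and matricellular genes were at 11100.0 and 5317 CPM.

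**Figure D3:**
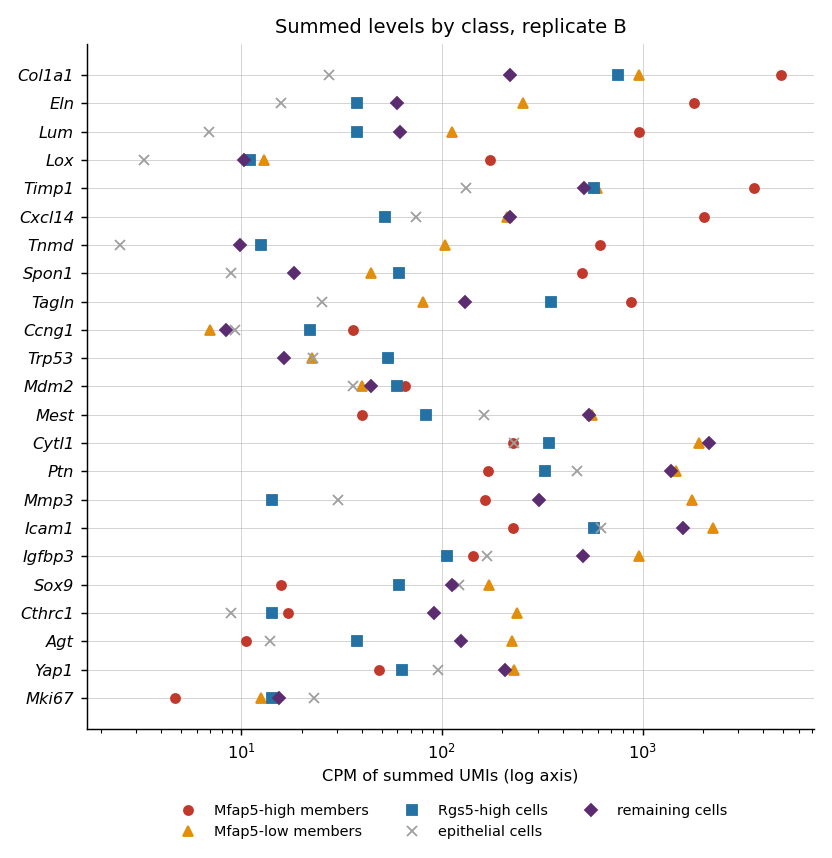
CPM of summed UMIs on a log axis for 23 genes in 5 classes of cells of BRCA1-null replicate B: Mfap5-high members (circles), Mfap5-low members (triangles), Rgs5-high cells (squares), epithelial cells (crosses) and remaining cells (diamonds). Mfap5-low members and remaining cells lie close together for Mest (557 and 543 CPM) and Yap1 (228 and 207 CPM), with Mfap5-high members at 40.0 and 48.8 CPM.

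Trp53 was at 54.1 CPM in Mfap5-high members, 53.6 CPM in Rgs5-high cells, 22.5 CPM in Mfap5-low members, 22.7 CPM in epithelial cells and 16.4 CPM in remaining cells. Between the member sets its log2 ratio was 1.27 (95% interval 0.74 to 1.81). As with Brca1, the counted 3′ end does not check the deletion. Ccng1, a transcriptional target of p53, was at 35.9 CPM in Mfap5-high members, 22.1 CPM in Rgs5-high cells and 7.0, 9.28 and 8.44 CPM in Mfap5-low members, epithelial cells and remaining cells, with a log2 ratio between the member sets of 2.36 (1.5 to 3.31). Zmat3, another target, followed this order less closely, at 9.99, 11.03, 1.5, 4.18 and 5.63 CPM on 20 UMIs in members. The target list as a whole was not ordered so: of 14 genes considered, 8 were higher and 6 lower in Mfap5-high than in Mfap5-low members, and 1, Ccng1, was at least 4-fold higher. Mdm2 was at 65.8 and 40.0 CPM and Cdkn1a at 267 and 233 CPM. All 7 proliferation genes with enough UMIs were lower in the Mfap5-high set, none by 4-fold.

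The levels were then summarised by chromosome. For each class, the log2 CPM ratio to the Rgs5-high cells was taken for 4773 genes of at least 20 CPM in the mean of 5 classes, centred on its median over these genes, and the median was taken over the genes of each of the 19 autosomes and X. For Mfap5-high members all 20 medians lay between -0.11 and 0.13. For Mfap5-low members they ran from -0.34 to 0.48, and 6 were at least 0.25 from 0. Chromosome 6 was at 0.48, chromosome 15 at 0.39 and chromosome 5 at 0.30, whereas chromosome 8 was at -0.34, X at -0.33 and chromosome 16 at -0.25. The remaining cells had medians of 0.36, 0.38 and 0.26 on chromosomes 6, 15 and 5, and of -0.39, -0.37 and -0.38 on chromosomes 8, X and 16. On these 6 chromosomes the epithelial medians had the same signs, at 0.15, 0.21 and 0.14 on chromosomes 6, 15 and 5 and at -0.04, -0.13 and -0.43 on chromosomes 8, X and 16. The epithelial cells also had chromosome 10 at -0.39, chromosome 1 at 0.28 and chromosome 17 at 0.27. All these medians share the Rgs5-high cells as reference. With Mfap5-high members as the reference, 6 chromosomes were at least 0.25 from 0 in Mfap5-low members. This count is not a separate check, because the Mfap5-high medians against the Rgs5-high cells lay only between -0.11 and 0.13. The Rgs5-high medians against Mfap5-high members are those same values with the sign reversed, so they add no result. A median over a chromosome moves both with the number of gene copies and with the genes a cell type uses, and these cannot be told apart here.

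**Figure D4:**
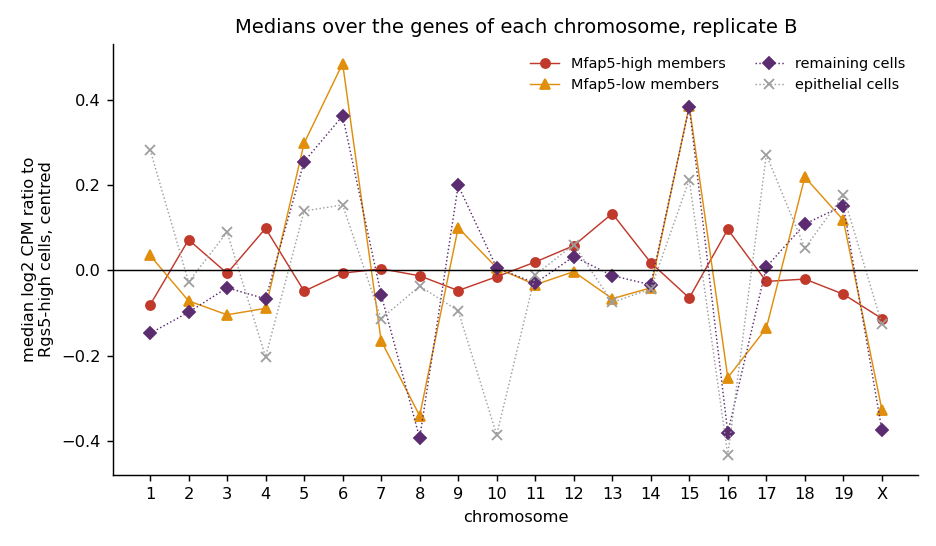
Median log2 CPM ratio to the Rgs5-high cells, centred on the median of all 4773 genes, over the genes of each chromosome for Mfap5-high members (circles), Mfap5-low members (triangles), remaining cells (diamonds) and epithelial cells (crosses) of BRCA1-null replicate B. The Mfap5-high medians stay between -0.11 and 0.13, and those of Mfap5-low members reach 0.48 on chromosome 6 and -0.34 on chromosome 8.

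Single cells were scored on the 3 chromosomes at 0.25 or above and the 3 at -0.25 or below in the remaining cells. These are the same 6 chromosomes that were at least 0.25 from 0 in Mfap5-low members, and the genes were filtered on a mean that included both member sets. The score therefore repeats the result above cell by cell and is not a separate check of it. The score was the log2 ratio of a cell's UMIs in 739 genes of chromosomes 5, 6 and 15 to those in 446 genes of chromosomes 8, 16 and X, leaving out the genes of all lists and genes at 500 CPM or more in any class. Its median was 0.44 in Mfap5-high members (quartiles 0.35 and 0.56) and 1.24 in Mfap5-low members (quartiles 1.03 and 1.38). Rgs5-high cells had a median of 0.36, epithelial cells of 0.81 and remaining cells of 1.26. Against the midpoint between the Rgs5-high and remaining cells, 10 of 172 Mfap5-high members (5.81%) and 132 of 162 Mfap5-low members (81.5%) were at or above it. Of the Mfap5-low members, 27 had been grouped with the Mfap5-high ones by k-means, and 2 of these reached the midpoint, against 130 of the other 135. The k-means grouping and the score share genes.

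**Figure D5:**
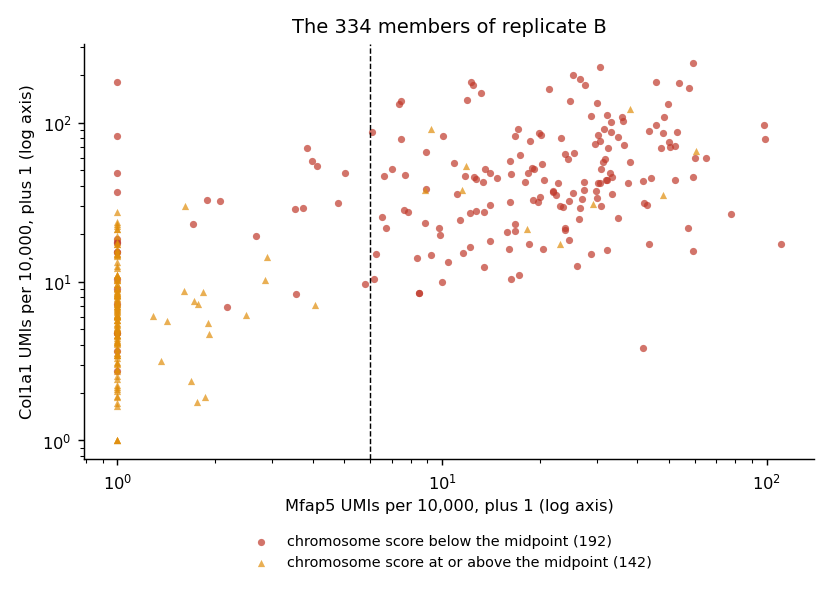
Each point is 1 of the 334 members of BRCA1-null replicate B, with Mfap5 on the x axis and Col1a1 on the y axis, as UMIs per 10000 plus 1 on log axes; the dashed line marks the limit of 5. Triangles are the 142 members with a chromosome score at or above the midpoint, which lie mostly at Mfap5 of 0, and circles the 192 below it.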

How the data were processed

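Tumors were sorted as CD24+ Lin- cells, and 10x Chromium 3′ libraries (version 2 chemistry) were made for each tumor. The authors aligned the reads to mm10 with Cell Ranger, version 2.2.0 for the A libraries and 4T1 and version 3.0.2 for the B libraries per the processing notes, while the matrix headers name 3.0.2; the STAR version is not given there. The authors deposited 1 matrix per library, holding UMI counts of 31053 genes with no normalization; a pooled matrix of all libraries was not used.

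Cells with at least 1000 UMIs, 500 genes and under 20% of UMIs from mt- genes were kept, and library totals are those of the deposited cells. UMIs were summed over cells of a class and scaled to CPM; a sum of 0 was replaced by 3 UMIs in ratios. A gene was called at 4-fold higher or at 0.25-fold. BRCA1-null replicate A had under 10 members and gave cell counts only, so no gene could be counted in both tumors. Intervals were exact at 95% (Poisson or Clopper-Pearson), and PCR duplicates are removed by UMIs. Positions came from GENCODE M21. Percentages of cells with a UMI of Epcam, Mfap5, Fcer1g or proliferation genes were taken after thinning to 3000 UMIs. Counts of cells with a UMI are unthinned unless stated. Scripts used Python 3.11.15, scanpy 1.11.5 for Scrublet and scikit-learn 1.9.0 for k-means, and were tested on simulated data.

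Doublets were kept in the main values. Scrublet, run on each library at an expected rate of 2%, marked 9 of 2078 cells (0.433%) in replicate B, too few for the caller to have worked, of which 6 were members, and 16 of 245 in replicate A. Named genes were the rule genes and given markers, the leading genes of each list by CPM, and the 10 largest and 10 smallest ratios, of which 1 is not reported here; for the Mfap5 split, genes were taken from the 15 largest ratios on each side and from genes picked after their values were seen. The members, the gene lists and these rules were chosen with earlier results of these data known, and 2 list names were not found in the matrices. Alternatives were other rule limits, cell filters, count filters, reference cells and split limits.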

Additional observations from a re-analysis of the deposited data

How the results depend on the processing

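No paired analysis was possible because the values come from no test and replicate A held 4 members. Without replicate A or B the total of 338 members was 334 or 4. The number of members in replicate B was 205 (9.87% of cells) at a collagen limit of 40 per 10000. The share was 21.1% at a limit of 10 and 17.8% without the Rgs5 limit. The cell filter of the study, a mitochondrial limit of 10% and thinning before the rule left the share between 16.1 and 17.1%. Removal of Scrublet doublets gave 15.9%, but with only 9 cells marked it could hardly move the share. A filter of 200 UMIs gave 352 genes at least 4-fold higher and 449 lower, since fewer genes entered. The other filters, references and member sets gave 413 to 909 higher and 716 to 1013 lower genes. Shares of members with a UMI moved with depth: Mfap5 60.8% unthinned, against 55.0% at 3000 UMIs; Epcam 63.8% unthinned and 15.1% at 1500 UMIs; Col1a1 99.1% unthinned and 80.4% at 1500 UMIs. The k-means grouping gave 212 genes at least 4-fold higher in its Mfap5-rich group, and leaving out members with 5 or more epithelial UMIs per 10000 left 106 Mfap5-low members. With Mfap5-high members as reference, 7 chromosomes were at least 0.25 from 0 in epithelial cells; no chromosome was in Mfap5-high members under the other gene filters. Of 21 named genes, 1 changed direction: Saa3 had a log2 ratio of -1.04 in Mfap5-low members alone. Of 20 list medians, 1 changed sign: that of the p53 target list was 0.15 over all members and -0.24 in Mfap5-low members alone. None of the 14 genes followed across the Mfap5 split changed direction. Removal of Scrublet doublets moved the median of the epithelial markers from -3.20 to -3.56. The split limits, the k-means grouping, the member subsets and the chromosome settings were added after seeing the data. The cause of these shifts was not tested.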

Other observations

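The members held some genes that are usually read as markers of other lineages. Cd79b, a B cell receptor chain, was at 76.2 CPM in members and 2.29 CPM in other cells and was counted in 97 members, although Cd79a had no UMI in them. Lpl, lipoprotein lipase, was counted in 197 members and was at 486 and 15.96 CPM, while the adipocyte genes Plin1, Lep and Cidec had no UMI in members and Fabp4 was at 6.48 CPM. Spp1, osteopontin, reached 569 per 10000 UMIs in 1 member and was at 2660 CPM in members and 1353 CPM in other cells. Of the 4 bone markers listed, Sp7 and Bglap had 1 UMI each in members. The 1 bone marker with enough UMIs was at least 4-fold higher in members, with a log2 ratio of 2.28.

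Imprinted genes did not move as a group between the sets: of 10 considered, 5 were higher and 5 lower in Mfap5-high members. Mest was at 40.0 and 557 CPM in Mfap5-high and Mfap5-low members, and Nnat at 14.1 and 1.00 CPM. Meg3, a maternally expressed noncoding RNA, was at 322 and 168 CPM, and at 786 CPM in Rgs5-high cells and 20.2 CPM in epithelial cells.

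Immediate early genes, which respond within minutes to tissue dissociation, differed less than 4-fold: none of 12 passed in either direction between members and other cells. Fos was at 349 and 1002 CPM and Jun at 628.5 and 608 CPM.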
